A study of Mus musculus with 8 samples.

Results

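The genes of cholesterol and fatty acid metabolism described here are 36 of the 55385 genes in the count table of a study of IgG and microglia, the resident macrophages of the brain. They were chosen by symbol, as a list of known pathway genes: 18 enzymes of sterol synthesis, 5 genes that control the sterol-sensing transcription factors (SREBPs), 7 enzymes of fatty acid synthesis, and 6 genes of the liver X receptor (LXR) arm. Each symbol was found once, and all 36 genes had enough counts to be among the 17537 that were tested. Microglia were shaken off mixed cultures of pooled wild-type newborn mouse neocortex and hippocampus after 12 days in flasks and kept for 3 days in plates. At 15 days in vitro they received 10 µg/ml IgG for 24 h (4 cultures) or served as controls (4 cultures), which the labels call untreated and the methods of the study describe as given PBS. Both groups share the serum-containing medium and the shaking step as the only purification. A control and an IgG culture of the same number carry the same date in the labels and form a pair. The labels do not say what step the date marks. In the fit with the pairs as a block, p-values weigh the difference within pairs against its spread between the pairs. In a fit without the block they measure the spread between cultures. The comparison asks whether the lipid genes of these cells differed after IgG.

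Cells make cholesterol from acetyl-CoA through the mevalonate, squalene and lanosterol stages. When sterol in the endoplasmic reticulum falls, SCAP carries SREBP to the Golgi for cleavage, and the freed factor switches on the sterol enzymes (mainly SREBP2) and the fatty acid enzymes (mainly SREBP1). INSIG holds SCAP back when sterol is plentiful. Oxidised sterols and the precursor desmosterol activate LXR, which raises the exporters ABCA1 and ABCG1. Microglia take up cholesterol-rich myelin debris and pass the sterol on through these exporters.

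The promoters of Hmgcs1 and Nr1h3 are shown because these genes had the smallest unadjusted p-values among the sterol enzymes and among all 36 genes, respectively. RefSeq promoters (GRCm38.p6; 250 bases before to 50 after the start of a transcript) were matched for 29 of the 36 genes, with 36 promoters in all. Abcg1, Fads1, Fdft1, Fdps, Scd2, Sqle and Stard4 had no entry. The Hmgcs1 promoter lies at chr13:119690101-119690400 on the plus strand and the Nr1h3 promoter shown, 1 of 2 overlapping entries, at chr2:91195067-91195366 on the minus strand. Capitals mark matches on either strand to TCACNCCAC, a form of the sterol regulatory element bound by SREBP, to CCAAT (the box bound by NF-Y), to GGGCGG (the GC box bound by SP1) and to CACGTG (an E-box).
Hmgcs1: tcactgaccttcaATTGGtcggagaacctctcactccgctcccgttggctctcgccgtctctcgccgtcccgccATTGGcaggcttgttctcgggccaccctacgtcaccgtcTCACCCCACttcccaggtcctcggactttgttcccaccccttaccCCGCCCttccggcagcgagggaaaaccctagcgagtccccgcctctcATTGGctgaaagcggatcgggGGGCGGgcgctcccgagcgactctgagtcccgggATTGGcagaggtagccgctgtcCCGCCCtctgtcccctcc
Nr1h3: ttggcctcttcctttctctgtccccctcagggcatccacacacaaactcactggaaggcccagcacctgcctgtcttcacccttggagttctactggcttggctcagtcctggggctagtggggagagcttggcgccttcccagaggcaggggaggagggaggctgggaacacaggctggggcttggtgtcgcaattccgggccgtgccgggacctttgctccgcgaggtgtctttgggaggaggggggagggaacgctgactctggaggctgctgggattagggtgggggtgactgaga

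The Hmgcs1 promoter held the sterol regulatory element letters, TCACCCCAC on the plus strand, starting 137 bases before the transcript start. It also held 4 CCAAT boxes and 3 GC boxes, while neither Nr1h3 entry held any of the 4 motifs. TCACNCCAC was found in 1 of the 29 matched genes and in 1.44% of all 27025 genes with a RefSeq promoter of this length. CCAAT was found in 23 of the 36 member promoters and in 37.4% of all 32851 promoters, and GGGCGG in 26 of 36 and 35.7%. Of the 15 matched sterol synthesis genes 14 held CCAAT, against 2 of the 5 matched LXR genes (Mylip and Lpcat3) and 41.1% of all genes. CACGTG was found in 8 of the 36 promoters and in 7.15% of all promoters. None of these matches overlapped another in the promoters shown, and a match describes letters, not binding. The shares of all genes and promoters include genes not tested here, and promoters of like GC content were not compared. Letters bound by LXR were not searched for.

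Library totals ran from 21287816 to 23703216 counts, and the least counted gene of the set in any library was Pmvk, with 172 counts in IgG culture 1. The 10 microglial markers summed to 6910 to 7581 CPM in control cultures and 7650 to 8172 CPM in IgG cultures, with Csf1r and C1qa each at 1091 CPM or more in all 8 libraries, whereas P2ry12 and Tmem119 stayed at 4.69 to 16.0 CPM. Of the 10, 5 were higher with IgG at an unadjusted p-value under 0.05, against 6.35% of all genes. After adjustment 1 was, against 0.393% of all genes in either direction. The median of the 10 markers was 0.19 on the log2 scale. The part of these markers in the LXR differences below was not tested. Oligodendrocyte-lineage markers summed to 1377 to 2076 CPM in control cultures and 1214 to 1962 CPM in IgG cultures. Astrocyte markers summed to 139 to 155 CPM in control cultures and 124 to 149 CPM in IgG cultures, and neuronal, fibroblast and endothelial markers to at most 161 CPM in any library. Border macrophage markers summed to 57.4 to 82.5 CPM in control cultures and 52.3 to 108 CPM in IgG cultures, mostly from Mrc1 (42.7 to 101 CPM), with Lyve1 at or near 0. Of the endothelial list, Flt1 measured 118 to 161 CPM and Cldn5 had 0 counts in all 8 libraries. Of the neuronal list, Map2 measured 18.5 to 33.9 CPM and Tubb3 9.2 to 17.4 CPM, while Slc17a6, of glutamatergic neurons, had 0 counts. Mitochondrial genes took 2.32 to 2.41% of counts in the control libraries and 4.85, 2.21, 5.59 and 1.97% in IgG libraries 1 to 4, so that IgG libraries 1 and 3 stood apart from the other 6.

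Levels in the control cultures were compared between genes as CPM (counts scaled to the size of the library) per kilobase of exon, since longer transcripts collect more counts. Exon length counted every base in an exon of any annotated transcript of the gene, which can exceed the length of a single transcript. In these whole-culture libraries, fewer cells of a type and less RNA per cell cannot be told apart. The set spanned a wide range around a median of 10.3 CPM per kilobase. The highest was Scd2 at 66.2 ± 15.1 CPM per kilobase (SD, n = 4), the desaturase that makes oleic acid from stearic acid, next to the cholesterol exporter Abca1 at 65.6 ± 3.21, and the ranges of these 2 genes over the control cultures overlapped. Acly, which makes cytosolic acetyl-CoA from citrate, followed at 33.3 ± 1.26. Hmgcs1, which makes HMG-CoA, stood at 29.0 ± 3.95 and Fdft1, the squalene synthase, at 28.3 ± 2.96, with overlapping ranges and both above the other 16 sterol enzymes, of which the next was Acat2 at 14.3 ± 1.61. The lowest levels per kilobase were those of Acaca at 3.14 ± 0.253 and the lanosterol synthase Lss at 3.35 ± 0.573. Acaca is the acetyl-CoA carboxylase that commits carbon to fatty acids. The exon lengths of Acaca and Lss were 17074 and 10787 bases. Before division by length, Lss had a mean of 36.1 CPM in control cultures, near Acat2 at 36.4 CPM. Of the 2 LXR genes, Nr1h2 (LXRβ) stood at 23.7 ± 0.44 and Nr1h3 (LXRα) at 11.2 ± 2.22, and of the 2 SREBP genes, Srebf2 at 20.7 ± 0.964 and Srebf1 at 9.91 ± 0.243, with no overlap between the control cultures in either case.

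**Figure D1:**
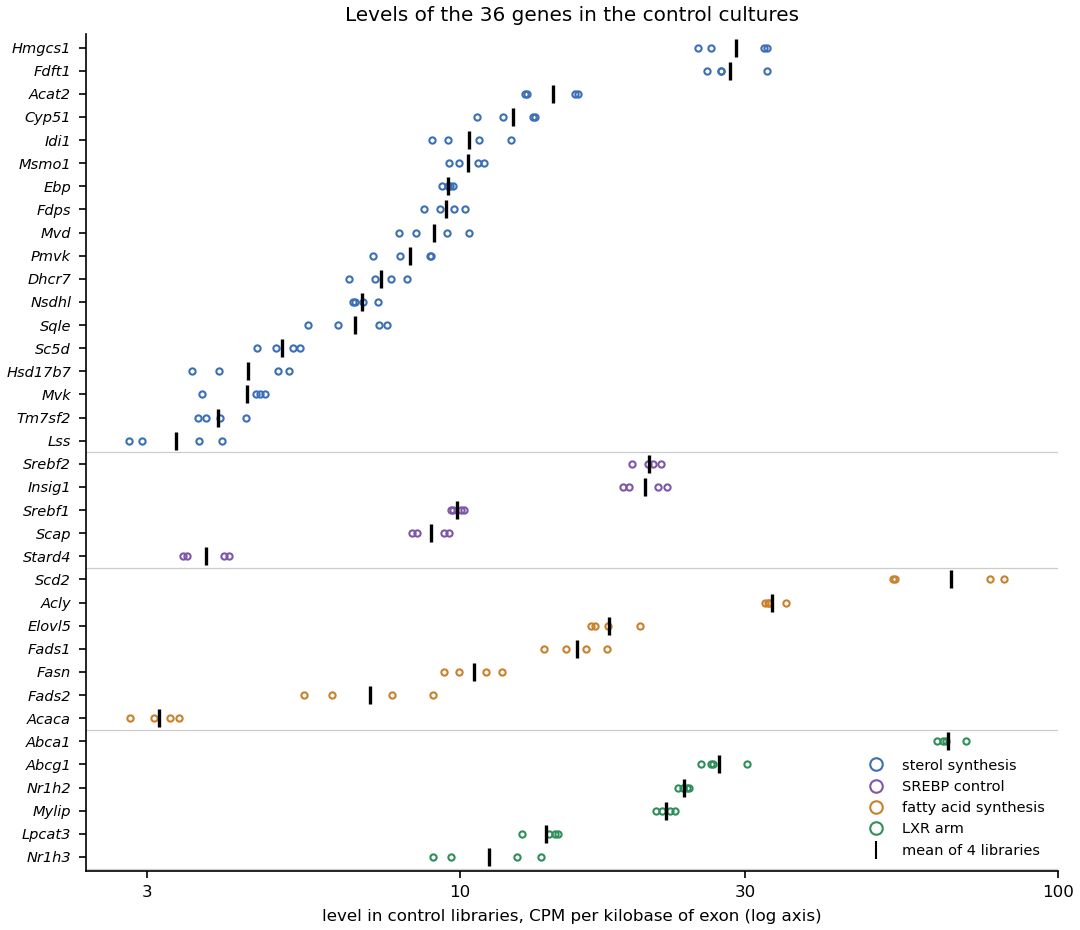
Level of each of the 36 genes in the 4 control libraries, in CPM per kilobase of exon on a log axis, grouped by role and ordered by the mean within a role; circles are single libraries and bars are means. Scd2 and Abca1 have means of 66.2 and 65.6 CPM per kilobase and Acaca and Lss of 3.14 and 3.35, and the 2 lower and 2 higher Scd2 circles are control cultures 1 and 3 and control cultures 2 and 4.

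No gene of the set passed the threshold for a difference with IgG, and the estimates were small. In edgeR's quasi-likelihood test with the pairs as a block, 0 of 36 members lay under 0.05 after adjustment, where 0.393% of all 17537 genes did. The likelihood ratio test, DESeq2 and limma-voom with the same block also called 0 members. At an unadjusted p-value under 0.05, 2 genes were higher (Nr1h3 and Abcg1), against 6.35% of all genes, and 1 was lower (Hmgcs1), against 3.85%. Without the block, the higher genes were the same 2, against 4.83% of all genes, and none was lower, against 2.18%. The criterion of the study, an unadjusted p-value under 0.01 with an absolute log2 fold change over 0.5, took in 0 members and 1.82% of all genes. The median log2 fold change was -0.0095 over the 36 genes and -0.0051 over all genes, with 18 members above 0 and 18 below. Scaling by library totals in place of TMM factors shifted the median of all genes to -0.11 and that of the 36 genes to -0.11, and 11 members with an estimate above 0 were then below 0. The 95% intervals of the log2 fold changes lay within -0.74 (Pmvk) and 0.79 (Abcg1), and the median SE was 0.099.

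The direction was the same in all 4 pairs for 9 genes. Nr1h3, Abcg1, Mylip and Lpcat3 were higher in every IgG culture than in its own control, against 10.4% of all genes that were higher in all pairs. All 4 belong to the LXR arm. Hmgcs1, Acat2, Sqle, Lss and Insig1 were lower in every pair, against 8.47% of all genes, and the first 4 are sterol enzymes. Acat2 and Lss were lower by less than 0.05 on the log2 scale in 3 of their 4 pairs. No member had groups that separated completely, where 2.6% of all genes had every IgG library above every control library and 1.57% the reverse.

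**Figure D2:**
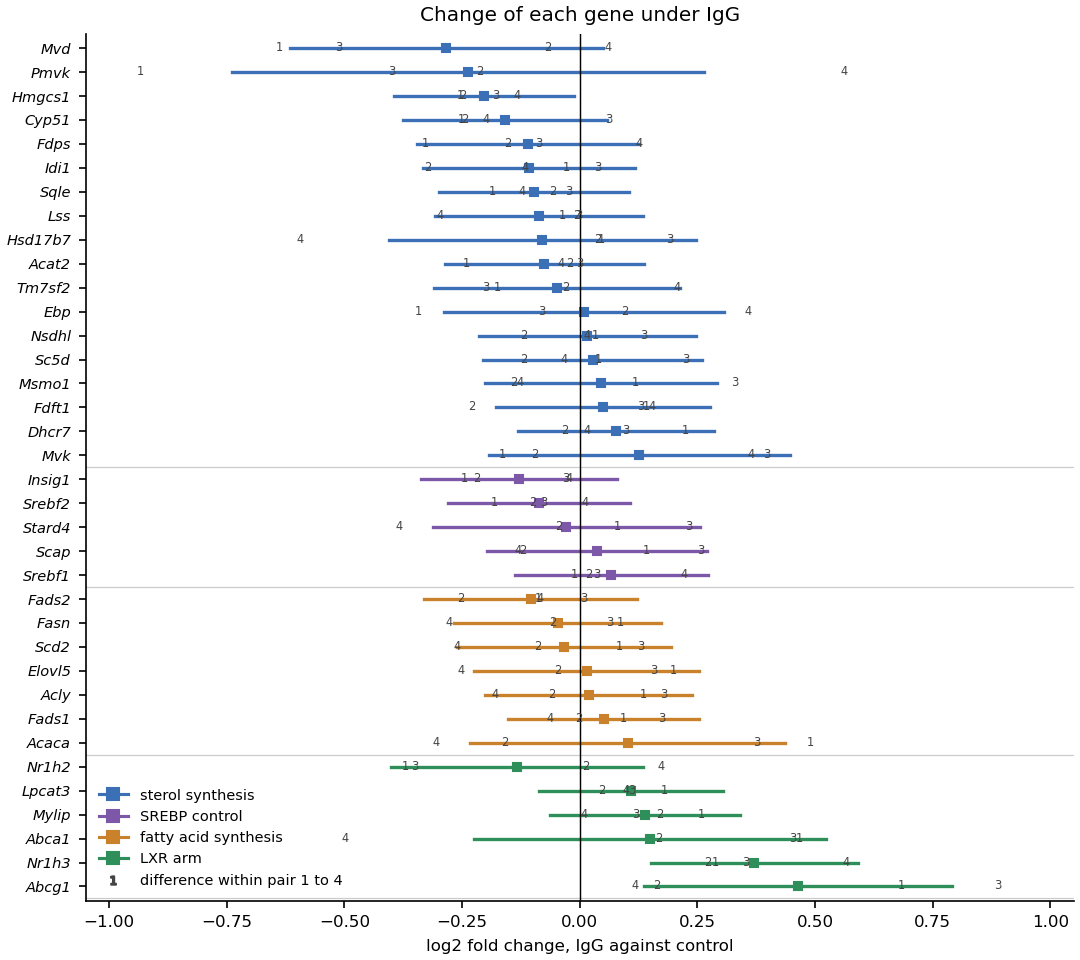
Log2 fold change of each gene under IgG with its 95% interval from the fit with the pairs as a block (squares and lines, coloured by role), and the log2 difference within each pair (digits 1 to 4). The intervals of Hmgcs1 (-0.39 to -0.013), Nr1h3 (0.15 to 0.59) and Abcg1 (0.14 to 0.79) leave out 0 before adjustment over all genes.

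Among the sterol synthesis enzymes, 11 of 18 had a log2 fold change below 0 and 7 above, with a median of -0.077, and none passed adjustment. This median was -0.18 under scaling by library totals and 0.017 without IgG culture 1 and the block. Hmgcs1 (ENSMUSG00000093930, chr13:119690379-119708260, GRCm38), the cytosolic HMG-CoA synthase that feeds the mevalonate pathway and whose promoter holds the sterol element above, measured 115, 149.7, 121 and 148 CPM in control cultures 1 to 4 and 96.3, 126, 107 and 135 CPM in the IgG cultures of the same numbers. Each IgG culture was below its own control, and control cultures 1 and 3 lay below IgG cultures 2 and 4, so the groups overlapped. The change was small (log2 fold change -0.20, SE 0.083, adjusted p = 0.475; 4 of 4 pairs lower) and its unadjusted p-value rose from 0.0393 to 0.163 without the block. It was 0.16, 0.128, 0.122 and 0.0152 without pairs 1, 2, 3 and 4. 12.1% of its exon bases lie in exons of the antisense gene Gm48342, whose reads cannot be told apart from it without strand.

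The largest estimates in the group were those of Mvd and Pmvk, neighbouring steps of the mevalonate pathway. Mvd, which makes isopentenyl diphosphate, measured 15.7, 17.7, 14.7 and 19.3 CPM in control cultures 1 to 4 and 10.0, 16.9, 10.3 and 20.1 CPM in the IgG cultures of the same numbers (log2 fold change -0.28, SE 0.14, adjusted p = 0.539). It was low in IgG cultures 1 and 3 and not in the other 6 libraries. Pmvk, the phosphomevalonate kinase, measured 15.3, 15.3, 12.3 and 13.6 CPM in control cultures 1 to 4 and 7.95, 13.2, 9.28 and 20.1 CPM in the IgG cultures of the same numbers (log2 fold change -0.24, SE 0.22, adjusted p = 0.696). Its IgG values lay both below and above all control values, and with pairs 2 and 4 alone, an alternative chosen after seeing the data, its log2 fold change was 0.18 and that of Mvd -0.0025.

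Fdft1, second to Hmgcs1 by level per kilobase in the group, measured 109.6, 115, 115 and 138 CPM in control cultures 1 to 4 and 121, 98.3, 126 and 154 CPM in the IgG cultures of the same numbers, and the IgG values reached below and above the control range (log2 fold change 0.050, SE 0.099, adjusted p = 0.869). 18.3% of its exon bases are shared with the overlapping gene Ctsb on the opposite strand. The first enzyme, Acat2 (acetyl-CoA acetyltransferase, -0.075), has a near-identical copy, Acat3, whose reads may be mixed with its own. The squalene epoxidase Sqle stood at a log2 fold change of -0.097, the lanosterol synthase Lss at -0.086 and the lanosterol demethylase Cyp51 at -0.16. The isoprenoid enzymes Idi1 and Fdps stood at -0.11 and -0.11, where 26.7% of the Fdps exon bases are shared with Gm43738. The later enzymes that turn lanosterol into cholesterol lay on both sides of 0: Hsd17b7 -0.079, Tm7sf2 -0.048, Ebp 0.0096, Nsdhl 0.016, Sc5d 0.028, Msmo1 0.045 and Dhcr7 0.077. The mevalonate kinase Mvk had the highest estimate of the group, 0.13. Adjusted p-values of the 17 enzymes other than Hmgcs1 were all 0.539 or more.

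The 5 SREBP control genes had log2 fold changes between -0.13 and 0.067, and none had an unadjusted p-value under 0.05. Insig1, the sterol-sensitive anchor of SCAP and itself a target of SREBP, measured 58.0, 66.4, 59.3 and 68.7 CPM in control cultures 1 to 4 and 48.9, 57.1, 58.1 and 67.7 CPM in the IgG cultures of the same numbers. It was lower in all 4 pairs, by 0.25 and 0.22 on the log2 scale in pairs 1 and 2 and 0.030 and 0.022 in pairs 3 and 4 (log2 fold change -0.13, SE 0.090, adjusted p = 0.623). Srebf2, the factor for sterol genes, measured 139.6, 156, 149 and 151 CPM in control cultures 1 to 4 and 123, 146, 141 and 152 CPM in the IgG cultures of the same numbers (log2 fold change -0.087, SE 0.084, adjusted p = 0.711). Srebf1, the factor for fatty acid genes, stood at 0.067 (95% interval -0.14 to 0.27), with isoforms not distinguished. Scap stood at 0.037 (interval -0.20 to 0.27) and the sterol carrier Stard4 at -0.029 (interval -0.31 to 0.25). SREBP activity is set by cleavage of the protein, which these libraries do not measure.

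The median log2 fold change of the 7 fatty acid synthesis genes was 0.015, with all 7 within -0.10 and 0.10, and none had an unadjusted p-value under 0.05. Scd2 measured 289, 421, 292 and 444 CPM in control cultures 1 to 4 and 307, 396, 319.7 and 371 CPM in the IgG cultures of the same numbers (log2 fold change -0.034, SE 0.099, adjusted p = 0.913). Its highest and lowest values were both control cultures, and IgG values lay between them. Acly measured 171, 173, 173 and 186 CPM in control cultures 1 to 4 and 188, 166, 196 and 164 CPM in the IgG cultures of the same numbers (log2 fold change 0.019, SE 0.096, adjusted p = 0.951). Acaca measured 48.0, 55.9, 52.6 and 57.8 CPM in control cultures 1 to 4 and 67.5, 50.1, 68.3 and 46.8 CPM in the IgG cultures of the same numbers (log2 fold change 0.10, SE 0.15, adjusted p = 0.812). Acaca was higher with IgG in pairs 1 and 3 and lower in pairs 2 and 4, and so were Acly, Fasn, Scd2, Elovl5 and Fads1, by smaller amounts, which makes 6 of the 7 genes. Fads2, the desaturase that starts the synthesis of long polyunsaturated fatty acids, measured 18.1, 25.3, 20.1 and 29.8 CPM in control cultures 1 to 4 and 17.0, 21.3, 20.3 and 28.1 CPM in the IgG cultures of the same numbers (log2 fold change -0.10, SE 0.098, adjusted p = 0.703), with largely overlapping ranges. The fatty acid synthase Fasn stood at -0.046 (95% interval -0.27 to 0.17), the elongase Elovl5 at 0.015 (-0.22 to 0.25) and the desaturase Fads1 at 0.051 (-0.15 to 0.25).

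The LXR arm had the highest median, 0.14 on the log2 scale, with 5 of 6 genes above 0 and 2 with an unadjusted p-value under 0.05, neither past adjustment. This median was 0.044 under scaling by library totals, 0.23 without pair 4 and 0.30 without IgG culture 4 and the block. Nr1h3 (ENSMUSG00000002108, chr2:91184061-91202834, GRCm38), the inducible LXRα, measured 31.4, 24.3, 34.4 and 22.7 CPM in control cultures 1 to 4 and 38.4, 29.4, 43.9 and 33.6 CPM in the IgG cultures of the same numbers. The IgG value exceeded the control value in each pair, and control cultures 1 and 3 lay above the IgG value of culture 2, so the groups overlapped. The log2 fold change was 0.37 (SE 0.096, adjusted p = 0.255; differences within pairs 0.29, 0.27, 0.35 and 0.57). It ranged from 0.29 to 0.40 when each pair was left out and was 0.42 with pairs 2 and 4 alone. Removing trends on exon length and GC content in the fit with the block gave 0.45 (adjusted p = 0.0467), the only member past the threshold there, against 1.21% of all genes.

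Abcg1 (ENSMUSG00000024030, chr17:31057675-31117988), which loads cholesterol onto HDL particles, measured 221, 194, 192 and 185 CPM in control cultures 1 to 4 and 354, 217, 355 and 201 CPM in the IgG cultures of the same numbers. IgG cultures 1 and 3 stood above all other libraries, and IgG cultures 2 and 4 lay within the control range. The log2 fold change was 0.46 (SE 0.14, adjusted p = 0.362; 4 of 4 pairs higher) and was 0.14 with pairs 2 and 4 alone. Without a filter on low counts its unadjusted p-value was 0.000405, the only member past the adjusted threshold there, against 376 of 31368 genes. Abca1 passes cholesterol to lipid-poor apolipoproteins and had the highest level per kilobase of the LXR arm. It measured 727, 666, 674 and 650.4 CPM in control cultures 1 to 4. In the IgG cultures of the same numbers it measured 1005, 748, 923 and 461 CPM. It was above all controls in IgG cultures 1, 2 and 3 and below all controls in IgG culture 4 (log2 fold change 0.15, SE 0.16, adjusted p = 0.744). Without pair 4 its log2 fold change was 0.35, and with pairs 2 and 4 alone -0.16.

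Mylip, a ubiquitin ligase that LXR switches on to limit lipoprotein uptake, stood at 0.14 (95% interval -0.063 to 0.34). Lpcat3, which puts polyunsaturated chains into phospholipids, stood at 0.11 (interval -0.087 to 0.30), and 10.2% of its exon bases are shared with Emg1 on the opposite strand. Nr1h2, the LXRβ gene, was the exception of the arm at -0.13 (interval -0.40 to 0.13), and measured 79.1, 77.7, 81.1 and 80.4 CPM in control cultures 1 to 4 and 61.1, 78.5, 63.6 and 90.7 CPM in the IgG cultures of the same numbers. It was below all controls in IgG cultures 1 and 3 and above all controls in IgG culture 4. Reads of the processed pseudogene Nr1h2-ps may be mixed with its own.

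**Figure D3:**
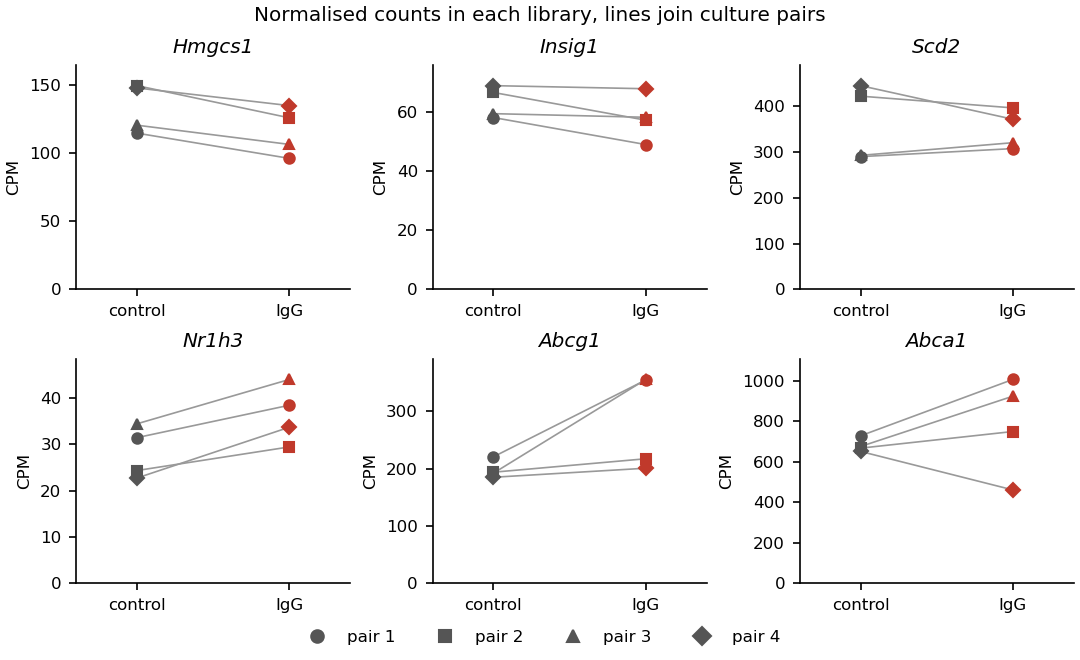
Normalised counts (CPM) of Hmgcs1, Insig1, Scd2, Nr1h3, Abcg1 and Abca1 in each library on axes from 0, with control and IgG cultures of a pair joined and each pair given its own symbol. Within every pair Hmgcs1 is lower and Nr1h3 and Abcg1 are higher with IgG, none past adjustment, while Abca1 is higher in pairs 1 to 3 and lower in pair 4.

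The pairs did not move alike. The SD of the 36 within-pair log2 differences was 0.308, 0.134, 0.255 and 0.26 in pairs 1 to 4, smallest in pair 2. In pairs 1 and 3, the 2 pairs whose IgG library had the high mitochondrial share, Pmvk, Mvd and Nr1h2 were lower and Acaca, Abca1 and Abcg1 higher. Across the 36 genes, Spearman's correlation of the within-pair difference with exon length was 0.468, 0.0384, 0.386 and -0.601 in pairs 1 to 4, and over all 17537 genes 0.21, -0.0316, 0.207 and -0.35. The correlation with GC content was -0.069, 0.219, -0.211 and 0.548 over the 36 genes and -0.384, -0.0308, -0.386 and 0.31 over all genes. The signs of the length correlation agreed between the 36 and all genes in pairs 1, 3 and 4. The genes of a pair share their 2 libraries and are not independent. With the trends on length and GC content removed, the log2 fold change of Mvd was -0.16 in place of -0.28, and that of Nr1h2 -0.0097 in place of -0.13. Hmgcs1 then stood at -0.26 and Abcg1 at 0.47 (adjusted p = 0.212 and 0.132). The part of the mitochondrial share in these differences was not tested.

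The labelled dates were compared in the same fit, and no lipid gene passed adjustment. Among the 18 sterol enzymes, the lowest of the 4 control values was in culture 1 for 10, culture 2 for 0, culture 3 for 7 and culture 4 for 1. The highest was in culture 4 for 10 and in culture 2 for 7. All 7 fatty acid genes were highest in control culture 4, and 6 of them were lowest in control culture 1. The IgG cultures did not repeat this order: 1 of the 7 was highest in IgG culture 4 and 4 were lowest there. Over all genes tested, cultures 1 to 4 held the lowest control value of 4680, 3759, 4114 and 4984 genes and the highest of 4718, 3774, 4031 and 5014. The 6 LXR genes did not share the order, and 4 of them were lowest in control culture 4. The summed sterol synthesis genes measured 676, 794, 701 and 822 CPM in control cultures 1 to 4, and 636, 716, 717 and 811 CPM in IgG cultures 1 to 4. Both groups were lowest in culture 1 and highest in culture 4.

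In the test of the 3 date terms, 8 of the 36 genes had an unadjusted p-value under 0.05, against 9.81% of all genes, and 0 had an adjusted p-value under 0.05, against 0.975%. The 8 were Acat2, Hmgcs1, Mvd, Sqle, Lss, Scd2, Fads2 and Nr1h3, with adjusted p-values from 0.18 (Fads2) upward. The highest control culture exceeded the lowest by 1.65-fold for Fads2, 1.53-fold for Scd2, 1.43-fold for Lss and 1.3-fold for Hmgcs1. Nr1h3 ran the other way, highest in control culture 3 and lowest in control culture 4, 1.51-fold apart.

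Markers of oligodendrocytes, the myelin-making cells with high sterol and fatty acid synthesis, moved with these dates. The 12 oligodendrocyte-lineage markers summed to 1377, 2076, 1420 and 1873 CPM in control cultures 1 to 4, and 1214, 1962, 1236 and 1849 CPM in IgG cultures 1 to 4. In both groups cultures 1 and 3 were below cultures 2 and 4. Of these 12 markers, 10 had an unadjusted and 2 an adjusted p-value under 0.05 in the date test. Pdgfra, of oligodendrocyte precursors, measured 4.35, 11.7, 5.23 and 14.0 CPM in control cultures 1 to 4, and Mobp, of myelinating cells, 12.0, 27.7, 13.7 and 25.5 CPM. Cspg4, also of precursors, did not follow this order and was lowest in control culture 2, at 70.8 CPM, with 72.3 and 78.9 CPM in control cultures 1 and 3. Of the 9 astrocyte markers tested, 4 had an unadjusted and 0 an adjusted p-value under 0.05 between dates. Their part in the date differences of the lipid genes was not tested. Between IgG and control, 1 of the 12 oligodendrocyte-lineage markers was lower at an unadjusted p-value under 0.05, against 3.85% of all genes. None passed adjustment.

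**Figure D4:**
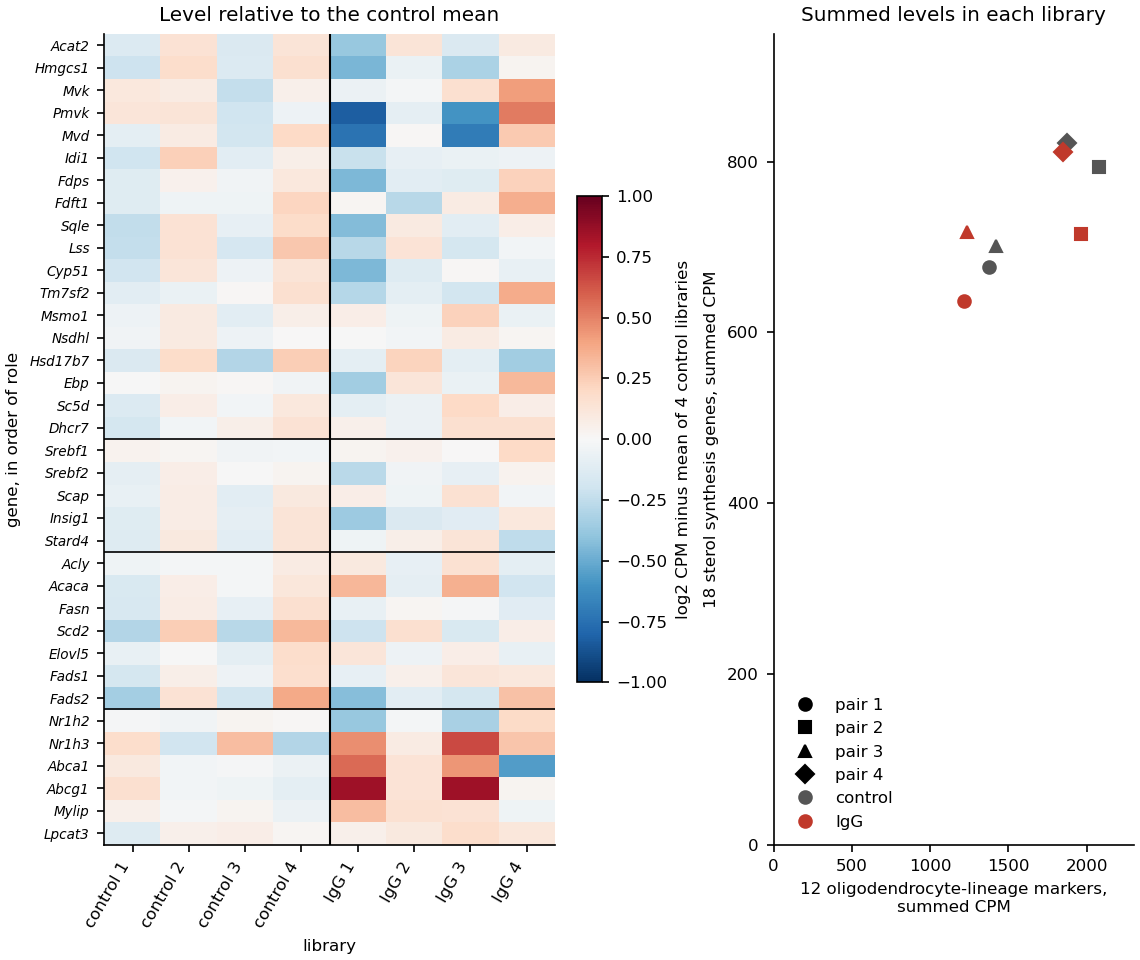
Left, log2 CPM of each gene in each library minus the mean of the 4 control libraries, in order of role (colour, from -1 to 1); right, the summed CPM of the 18 sterol synthesis genes against that of the 12 oligodendrocyte-lineage markers, 1 symbol per pair, grey for control and red for IgG. Cultures 1 and 3 lie to the left of cultures 2 and 4 in both groups, and the row of Abcg1 is darkest in IgG cultures 1 and 3.

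The wider pathway gave no gene past adjustment in the fit with the pairs as a block. Of 16 further genes of sterol synthesis and SREBP control, 15 were tested: 9 had a log2 fold change above 0 and 6 below, and none passed adjustment. Of 25 further fatty acid synthesis genes 24 were tested, with 1 higher and 1 lower at an unadjusted p-value under 0.05 (against 6.35 and 3.85% of all genes): the acyl-CoA dehydratase Hacd4 (log2 fold change 0.51, SE 0.16, adjusted p = 0.367) and the carbohydrate-sensing factor Mlxipl (log2 fold change -0.67, SE 0.28, adjusted p = 0.475). The log2 differences of Hacd4 in pairs 1 to 4 were 0.86, 0.25, 0.91 and 0.0054, and those of Mlxipl were -1.60, -0.11, -1.21 and 0.085.

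Of 30 genes of cholesterol transport, storage and oxidation, 29 were tested and 4 were higher at an unadjusted p-value under 0.05 (against 6.35% of all genes), with a median log2 fold change of 0.0038, 15 genes above 0 and 14 below. The smallest p-values were those of the sterol esterifying enzyme Soat2 (log2 fold change 0.69, SE 0.16, adjusted p = 0.17) and of Ch25h (log2 fold change 0.40, SE 0.10, adjusted p = 0.245), which makes 25-hydroxycholesterol, an LXR ligand that also retains SREBP, and is known to be induced by interferon. Both were higher in all 4 pairs. With the length and GC correction Ch25h had a log2 fold change of 0.44 (adjusted p = 0.0474), the only gene of the list past the threshold there, and Soat2 alone met the criterion of the study. Soat2 was low, at 2.7, 2.44, 2.97 and 2.89 CPM in control cultures 1 to 4 and 4.72, 4.17, 4.27 and 4.6 CPM in the IgG cultures, with no overlap of the groups. The apolipoprotein genes Apoe, Apoc1 and Apoc2, which LXR is also known to raise in macrophages, had estimates below 0. Apoe had a log2 fold change of -0.48 (adjusted p = 0.552), with differences of -1.06, -0.058, -1.17 and 0.37 in pairs 1 to 4, lower mainly in pairs 1 and 3. Apoc1 stood at -0.69 and Apoc2 at -0.36. Other known LXR targets had estimates above 0: Smpdl3a 0.28 (adjusted p = 0.363), Lpl 0.20 (adjusted p = 0.671) and Pltp 0.18 (adjusted p = 0.631). Lpl was higher in pairs 1 and 3 and lower in pairs 2 and 4. The apolipoprotein genes and these targets were picked after their values were seen, from no fixed list, and were not tested as a group. The choice left out, among others, Abcg4 (-0.28), Scd1 (0.0060) and Mlxipl (-0.67). It also left out Srebf1 (0.067), Fasn (-0.046) and Scd2 (-0.034), which were counted under other roles. Ch25h measured 42.1, 34.5, 51.5 and 42.6 CPM in control cultures 1 to 4. The IgG cultures of the same numbers measured 59.2, 50.3, 56.1 and 57.6 CPM. Control culture 3 lay above IgG culture 2, so the groups overlapped. The part of Ch25h and of interferon in the differences of the lipid genes was not tested. The 10 interferon-stimulated genes, the response at the centre of the study, summed to 471 to 1163 CPM in control cultures and 744 to 2033 CPM in IgG cultures. All 10 were higher at an unadjusted p-value under 0.05, against 6.35% of all genes. After adjustment 5 of them were, against 0.393% of all genes in either direction. In the date test, 8 of the 10 interferon-stimulated genes passed adjustment, against 0.975% of all genes.

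Of 22 genes of fatty acid oxidation 21 were tested and none reached 0.05 before adjustment. The smallest p-values were those of Cpt2 (log2 fold change 0.23, SE 0.11, adjusted p = 0.507), which reloads acyl-CoA inside mitochondria, and Acadm (log2 fold change -0.20, SE 0.099, adjusted p = 0.528), a dehydrogenase. Of 26 genes of lipid uptake and droplets 22 were tested, with 1 higher and 2 lower at an unadjusted p-value under 0.05, against the same shares of all genes. The smallest were those of the monoglyceride lipase Mgll, lower in all 4 pairs (log2 fold change -0.30, SE 0.091, adjusted p = 0.353), and the acyl-CoA synthetase Acsl5, higher in all 4 pairs (log2 fold change 0.31, SE 0.098, adjusted p = 0.367).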

How the data were processed

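PolyA RNA of 8 cultures (4 control, 4 IgG) was sequenced. The deposited table holds raw counts per gene, made by the authors with HISAT2 (2.2.1) and featureCounts on GRCm38; the submitters' processing notes also name SAMtools (1.12), Picard (2.26.3), R (4.1.2) and edgeR (3.36.0). The strand setting and the handling of reads that match several genes are not given in the sources used here. Of 55385 genes, 55144 matched the GENCODE annotation of that build, which gave exon length and GC content.

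Genes were filtered with filterByExpr (17537 left) and scaled by TMM in edgeR (4.0.16, R 4.3.3). IgG was compared with control by the quasi-likelihood test with the replicate number as a block, and a gene was called at a Benjamini-Hochberg adjusted p-value under 0.05 over all tested genes. Differences between dates were tested with the 3 date terms of the same fit. Levels are TMM-scaled CPM, per kilobase of exon where genes are compared. Pairs rest on the shared date in the labels; deviations from the group means, over 9885 genes, correlated by 0.281 to 0.486 within numbers and by -0.399 to 0.309 between them. No 2 libraries of a group agreed within counting noise (chi-square per degree of freedom 5 or more, genes with at least 20 counts). At these totals 3 counts correspond to 0.127 to 0.141 CPM, for counting error only.

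Alternatives were no block, the likelihood ratio test, DESeq2 (1.42.0), limma-voom (3.58.1), other scalings and filters, a correction for exon length and GC content (lowess, span 0.3), each pair or library left out, and pairs 2 and 4 alone. The scripts were tested on simulated counts. The members and lists were chosen with earlier results of these data known. Genes given in every library had an unadjusted p-value under 0.05, 1 of the 2 largest absolute log2 fold changes of their role, or 1 of the 2 highest levels per kilobase; of each wider list, the 2 genes with the smallest p-values are named, except in the list of further sterol genes, whose single genes are not reported here. The markers Pdgfra, Mobp and Cspg4 and the per-library values of Nr1h2 were added after their values were seen. So were Apoe, Apoc1, Apoc2, Smpdl3a, Lpl, Pltp, Abcg4 and Scd1. Low counts kept, among others, Elovl3, Cyp7b1, Ppara, Plin1, Plin4, Plin5 and Cidec from being tested.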

Additional observations from a re-analysis of the deposited data

Results flagged for a closer look

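Among the 72 groups of 4 libraries examined (36 genes in 2 treatments), 3 held 1 library far from the others by Dixon's test at the 95% level. Chance alone gives about 1 in 20 such groups. Mvk, the mevalonate kinase, measured 9.923 CPM in control culture 3 against 12.19 to 12.65 CPM in the other control cultures. Idi1, the isopentenyl diphosphate isomerase, measured 30.89 CPM in IgG culture 1 against 34.13 to 34.78 CPM in the other IgG cultures. Acly measured 185.6 CPM in control culture 4 against 170.9 to 173.3 CPM in the other control cultures. Sterol and fatty acid synthesis genes were also mostly low in control cultures 1 and 3 and high in control culture 4.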

How the results depend on the processing

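Of the 792 log2 fold changes of the 36 genes over 22 settings, 705 kept their direction and their side of the adjusted threshold, 2 passed it and 85 changed sign, in 24 genes. The 2 that passed were Nr1h3 with the correction for length and GC content and Abcg1 without the filter on low counts, so that 1 member passed under each; 0 passed in the other settings, with 0 in every leave-one-out fit. No replicate block left 0 members lower and 2 higher at an unadjusted p-value under 0.05, and 0 genes past the adjusted threshold over all genes, where the fit with the block had 69. The block changed no adjusted call of a member. The likelihood ratio test and DESeq2 gave 327 and 231 genes past the adjusted threshold. Scaling by library totals gave 37, no filter on low counts 376 of 31368, and the length and GC correction 213. Pairs 2 and 4 alone, chosen after seeing the data, gave 190. At an unadjusted p-value under 0.05, the likelihood ratio test and DESeq2 had 0 members lower, against 881 and 520 of 17537 genes. Scaling by library totals had 5 members and 1523 genes lower, and the length and GC correction 2 members and 923 genes. With pairs 2 and 4 alone, 1 member was higher and 0 lower, against 691 and 772 of 17757 genes. Leaving out a pair kept the block, and leaving out a single library also dropped it, so that 2 choices changed. These fits gave 0 to 182 genes past the adjusted threshold. At an unadjusted p-value under 0.05, 0 to 4 members were higher, 0 to 4 lower and 3 to 9 differed between dates. The 4 higher came without IgG replicate 4, where 2604 of 17775 genes were higher. The 4 lower came without pair 4, where 1982 of 17554 genes were lower. In the fit of all libraries, 9.81% of all genes differed between dates at that p-value. The genes past the threshold numbered 14, 0, 16 and 182 without pairs 1, 2, 3 and 4, and 0 to 6 without single libraries, where the fit of all libraries with no block gave 0; the cause was not tested.

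Medians under scaling by library totals were -0.18 for sterol synthesis, -0.13 for SREBP control, 0.044 for the LXR arm and -0.11 for all 36 genes, beside the shift of all genes. With pairs 2 and 4 alone the SREBP median was -0.12. Over the fits that left out a pair or a library, medians ran from -0.12 to 0.017 for sterol synthesis, -0.089 to 0.024 for SREBP control and 0.093 to 0.30 for the LXR arm. Log2 fold changes that changed sign were, under scaling by library totals, Fdft1 -0.051, Msmo1 -0.055, Nsdhl -0.084, Ebp -0.090, Sc5d -0.072, Dhcr7 -0.024, Srebf1 -0.033, Scap -0.063, Acly -0.082, Elovl5 -0.086 and Fads1 -0.050. With at least 10 counts required in every library they were Nsdhl -0.012, Ebp -0.019, Sc5d -0.00022, Acly -0.0097 and Elovl5 -0.014, and with the length and GC correction Msmo1 -0.0044, Nsdhl -0.0085, Sc5d -0.033, Fasn 0.018 and Elovl5 -0.026. With pairs 2 and 4 alone they were Pmvk 0.18, Fdft1 -0.036, Tm7sf2 0.092, Msmo1 -0.13, Nsdhl -0.052, Sc5d -0.076, Dhcr7 -0.0073, Scap -0.13, Acly -0.12, Acaca -0.23, Elovl5 -0.15, Fads1 -0.032, Nr1h2 0.094 and Abca1 -0.16. Leaving out a pair or a library turned the sign of genes whose values ran as follows: Acat2 -0.14 to 0.024, Pmvk -0.53 to 0.011, Fdps -0.22 to 0.0088, Fdft1 -0.053 to 0.16, Sqle -0.17 to 0.0084, Tm7sf2 -0.19 to 0.047, Msmo1 -0.049 to 0.11, Nsdhl -0.023 to 0.061, Hsd17b7 -0.19 to 0.075, Ebp -0.12 to 0.13, Sc5d -0.037 to 0.077, Srebf1 -0.0014 to 0.094, Scap -0.035 to 0.089, Stard4 -0.11 to 0.073, Acly -0.033 to 0.068, Acaca -0.028 to 0.22, Fasn -0.10 to 0.014, Scd2 -0.15 to 0.046, Elovl5 -0.047 to 0.087, Fads1 -0.0073 to 0.093 and Fads2 -0.26 to 0.018. Hmgcs1 (-0.28 to -0.12), Nr1h3 (0.26 to 0.48) and Abcg1 (0.32 to 0.64) kept their sign in these fits. When a pair was left out, the unadjusted p-value of Nr1h3 ran from 0.0118 to 0.0185. When a single library was left out with no block, it ran from 0.0191 to 0.149 for Nr1h3, over 0.05 without control replicate 2 or 4 or IgG replicate 1 or 3, and from 0.051 to 0.375 for Hmgcs1. For Abcg1 it ran from 0.00263 to 0.0701. Without replicate 3 the unadjusted p-value of Abcg1 was 0.0582, and without replicate 4 that of Abca1 was 0.0089.

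With 4 cultures a group, each 95% interval gives the range of differences compatible with the data of that gene. The median SE was 0.099 on the log2 scale, and the smallest difference that could be detected was not computed. The lowest count of a member was 172, and the part of counting error in the SE was not tested.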
